A study of Rattus norvegicus with 8 samples.

Results

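The miRNAs miR-140, miR-455 and miR-675 are cartilage-associated, and their mature arms were followed in rat femur bone next to titanium implants. They were taken by name, as every deposited entry called rno-miR-140, rno-miR-455 or rno-miR-675 with any arm suffix. This gave 6 miRNAs, the 5p and 3p arms of 3 hairpins, of 974 entries in the table. Catalogued miRNAs, whose names begin with rno-, make up 604 of these and predicted ones the rest. The study has 8 small RNA libraries, from 4 hyperlipidemic and 4 normal samples. All rats were male Wistar rats aged 12-13 weeks with an implant in each femoral shaft. Hyperlipidemia came from a high-fat diet given for 8 weeks, against a normal diet over the same time, and a 1 mm rim of bone around the implant, cleaned of muscle, was collected 10 days after implantation. The labels do not say whether each library is a separate rat or a pool, so the p-values measure the spread between these libraries.

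A miRNA is cut from a hairpin precursor, whose 2 sides give the 5p and the 3p arm, and the arm loaded into an Argonaute protein represses transcripts that match its seed, bases 2 to 8. miR-140 is the best known miRNA of chondrocytes, the cells of cartilage: in mice it is driven by the cartilage factor SOX9, and mice without it have short bones and early osteoarthritis-like damage. miR-455 is likewise high in developing cartilage of mouse and human, and miR-675 is cut from the imprinted long noncoding RNA H19, which is high in fetal tissue and in muscle. In human chondrocytes miR-675 raises collagen II, the main collagen of cartilage. Healing bone can form directly or through a cartilage stage.

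The mature sequences are shown as listed in the RefSeq table of the assembly GRCr8, with the seed in capitals. This table held 5 of the 6 arms. Which miRNA reference was used to count the libraries is not named.
miR-140-5p: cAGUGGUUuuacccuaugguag
miR-140-3p: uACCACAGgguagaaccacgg
miR-455-3p: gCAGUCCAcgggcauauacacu
miR-675-5p: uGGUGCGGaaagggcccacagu
miR-675-3p: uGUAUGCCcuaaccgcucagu

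The 5 seeds differ from each other, and none occurs in bases 2 to 8 of any other of the 693 mature rat miRNAs of that table. The hairpins are shown because the balance of their arms is one of the results, with the arms of the list above in capitals.
mir-140: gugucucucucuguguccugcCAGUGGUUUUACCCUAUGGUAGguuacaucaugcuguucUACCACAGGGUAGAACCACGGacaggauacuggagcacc
mir-455: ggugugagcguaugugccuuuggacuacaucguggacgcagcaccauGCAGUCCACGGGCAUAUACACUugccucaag
mir-675: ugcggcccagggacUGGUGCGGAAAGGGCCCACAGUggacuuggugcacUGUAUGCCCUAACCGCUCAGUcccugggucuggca

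In GRCr8, which is not the build of the submitters' processing notes, the mir-140 hairpin lies on the plus strand of chromosome 19 inside Wwp2, which encodes a ubiquitin ligase. The mir-455 hairpin lies on the plus strand of chromosome 5 inside Col27a1, which encodes a fibrillar collagen of cartilage. The mir-675 hairpin lies on the minus strand of chromosome 1 inside H19 and an overlapping noncoding transcript, LOC102548505. Transcripts of these host genes were not analysed here.

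miR-140 was well expressed, miR-455 lower and miR-675 close to the detection limit. Levels are in reads per 1000000 (RPM) of the catalogued class, the unit of the deposited values, and they are compared mainly within a miRNA, since adapter ligation favours some miRNAs over others. Over the 8 libraries the mean was 2642 RPM for miR-140-3p (rno-miR-140-3p in the table), rank 53 of the 604 catalogued miRNAs, and 1212 RPM for miR-140-5p (rno-miR-140-5p), rank 82. miR-455-5p had a mean of 229 RPM (rank 136) and miR-455-3p of 65.8 RPM (rank 198). miR-675-3p had 8.14 RPM (rank 319) and miR-675-5p 0.649 RPM (rank 463). The 6 arms together made up 0.293% to 0.777% of the catalogued signal of a library, and 88.3% to 95.8% of their sum was miR-140.

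The depth behind these values differed between the diets. The catalogued scale rested on 2643499 to 4809904 reads in hyperlipidemic and 990801 to 1748968 reads in normal libraries, as recovered from the step of 1 read in the values. Reads per library ran from 1903 to 15796 for miR-140-3p, from 66 to 291 for miR-455-3p and from 2 to 74 for miR-675-3p. Blood miRNAs took a large and uneven share of the libraries. The red-cell list (4 of its 6 names in the table, none at 0 in any library) held 19.2% to 33.1% of the catalogued signal in hyperlipidemic and 7.77% to 20.2% in normal libraries. The list named myeloid (4 of 4), made up of the arms of the leukocyte miRNAs miR-142 and miR-223, held 14.8% to 19.96% and 6.08% to 20.2%. Its most abundant members were miR-142-5p and miR-142-3p (means 71704 and 41609 RPM), which are not particular to myeloid cells. These sums follow the most abundant list members, and not all members went the same way between the diets. Red-cell miR-144-3p and miR-451-5p had log2 folds of 1.52 and 0.71, but miR-486 and miR-144-5p had -0.14 each. On the myeloid list miR-142-5p, miR-142-3p and miR-223-3p had 0.84, 0.32 and 0.38, but miR-223-5p had -0.91. None of them passed by limma. Normal replicates 3 and 4 stood apart, with 8.95% and 7.77% red-cell and 9.34% and 6.08% myeloid signal, and with the largest shares of the mesenchymal list (6 of 6), 7.32% and 7.96% against 2.77% to 6.05% in the other libraries.

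**Figure D1:**
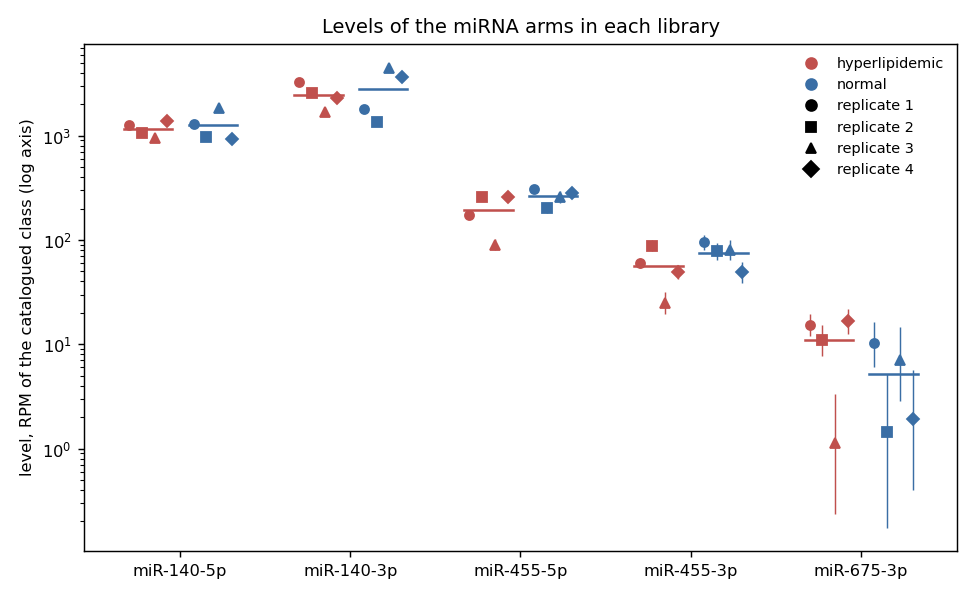
Level of 5 of the arms in each library, in reads per 1000000 of the catalogued class on a log axis. Symbols are replicates, thin lines exact Poisson 95% intervals that cover counting error only, and horizontal bars group means. miR-140-3p lies between 1363 and 4426 RPM and miR-675-3p between 1.13 and 16.8 RPM, and the diets overlap in every arm.

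miR-140-3p, the more abundant arm of the cartilage miRNA, varied most between normal libraries. In hyperlipidemic replicates 1 to 4 it stood at 3284, 2551, 1706 and 2325 RPM. In normal replicates 1 to 4 it stood at 1805, 1363, 4426 and 3679 RPM. The 2 highest values and the lowest were all in normal libraries, and the hyperlipidemic values lay between them. The group means were 2467 ± 651 and 2818 ± 1468 RPM (SD, n = 4 each). The log2 fold on the log2(value + 0.475) scale was -0.07 (SE 0.40, 95% interval -0.97 to 0.84, limma adjusted p = 0.935). In bulk bone, fewer cells of a type and less RNA per cell cannot be told apart.

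miR-140-5p, the arm whose targets in mouse cartilage include the aggrecan-cutting protease Adamts5, was the steadiest of the 6. It stood at 1260, 1057, 954 and 1370 RPM in hyperlipidemic replicates 1 to 4 and at 1300, 963, 1861 and 932 RPM in normal replicates 1 to 4. Only normal replicate 3 lay outside the range of 932 to 1370 RPM held by the other 7 libraries. The group means were 1160 ± 189 and 1264 ± 432 RPM (SD, n = 4 each; log2 fold -0.08, SE 0.27, 95% interval -0.70 to 0.54, limma adjusted p = 0.890).

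miR-455 was lower on average in hyperlipidemic libraries in both arms, but 1 library carried much of this. miR-455-5p stood at 175, 259, 90.4 and 259 RPM in hyperlipidemic replicates 1 to 4 and at 306, 203, 259 and 282 RPM in normal replicates 1 to 4. Hyperlipidemic replicate 3 was the lowest of all, and the others overlapped. The means were 196 ± 80.7 and 263 ± 44.3 RPM (SD, n = 4 each; log2 fold -0.52, SE 0.37, 95% interval -1.35 to 0.31, limma adjusted p = 0.441).

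miR-455-3p, reported to target transcripts of the TGF-beta pathway such as Smad2 in cultured cells, was less abundant than the 5p arm in each library. It stood at 60.5, 88.2, 24.97 and 49.7 RPM in hyperlipidemic replicates 1 to 4 and at 94.9, 78.1, 80.7 and 49.4 RPM in normal replicates 1 to 4. Hyperlipidemic replicate 3 was again the lowest, and normal replicate 4 lay among the hyperlipidemic values. The means were 55.9 ± 26.2 and 75.8 ± 19.1 RPM (SD, n = 4 each; log2 fold -0.53, SE 0.42, 95% interval -1.48 to 0.42, limma adjusted p = 0.484). Without hyperlipidemic replicate 3, which also had the largest red-cell share (33.1%), the log2 folds were -0.19 for miR-455-5p and -0.20 for miR-455-3p.

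miR-675-3p, the better covered arm of the H19 miRNA, was split between libraries with about 10 RPM and libraries with next to none. It stood at 15.4, 11.1, 1.13 and 16.8 RPM in hyperlipidemic replicates 1 to 4, on 74, 35, 3 and 56 reads. It stood at 10.3, 1.43, 7.06 and 1.92 RPM in normal replicates 1 to 4, on 18, 2, 7 and 3 reads. Hyperlipidemic replicate 3 and normal replicates 2 and 4 were the low libraries, so that each diet held both kinds. The means were 11.1 ± 7.07 and 5.18 ± 4.26 RPM (SD, n = 4 each; log2 fold 0.95, SE 0.92, 95% interval -1.14 to 3.03, limma adjusted p = 0.585). Without hyperlipidemic replicate 3 the log2 fold was 1.74, and without normal replicate 2 it was 0.54.

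miR-675-5p was hardly detected and was not tested. It had 11 reads in all, 8 in hyperlipidemic and 3 in normal libraries. It was listed at 0 in hyperlipidemic replicates 1 and 3 and in normal replicates 1 and 4, where a count of 0 allows up to 0.624, 1.13, 1.72 and 1.92 RPM (3 reads). The other libraries had 0.95, 1.5, 0.72 and 2.02 RPM. A difference between diets was not detectable at this depth.

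None of the 5 arms tested passed between the diets by limma at an adjusted p under 0.05, where 0.718% of the 696 miRNAs tested did. Those that did were all predicted entries, and 0 of the 396 tested catalogued miRNAs passed in this fit. The 696 include 300 predicted entries, in which 1 read is worth at least 6.94 RPM. In a limma fit of the 396 catalogued miRNAs alone 3 passed and 83 had an unadjusted p under 0.05, none of them a member. In the main fit none of the 5 arms had an unadjusted p under 0.05 either, against 17.8% of all tested. The diets overlapped in every arm, while they did not overlap in 12.6% of all tested. Exact permutation tests over the 8 libraries, two-sided, gave p-values between 0.171 for miR-455-5p and 0.857 for miR-140-3p, where the smallest possible is 0.0286. Voom on the recovered reads called none of the 5 either. A p that misses the threshold does not show that the levels were alike: the intervals still reach a log2 difference of -1.35 for miR-455-5p, -1.48 for miR-455-3p and 3.03 for miR-675-3p.

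The small miR-140 differences lay within their SEs, and their sign changed with the scale and also when single libraries were left out. The deposited values are relative within the class. With the deposited scale the median log2 fold of all 396 tested catalogued miRNAs was -0.20. Median-of-ratios factors moved that median to 0.05, and the log2 folds of miR-140-5p and miR-140-3p to 0.18 and 0.20. Rescaling to the sum of the mesenchymal list, chosen after seeing the data, moved the median to 0.24 and the miR-140 arms to 0.38 and 0.39, and brought the miR-455 arms to -0.06 (5p) and -0.08 (3p). Relative to the median of catalogued miRNAs under the same scale, miR-140-5p stood at 0.14 and miR-140-3p at 0.15 in this rescaling, with miR-455-5p at -0.30, miR-455-3p at -0.32 and miR-675-3p at 1.08. On the deposited scale the same relative values were 0.12, 0.14, -0.32, -0.33 and 1.15, so they moved little with this rescaling. Without normal replicates 3 and 4, the libraries poor in blood miRNAs, miR-140-3p stood at a fitted log2 fold of 0.61 (SE 0.29, limma adjusted p = 0.489) and miR-140-5p at 0.04. The part of blood cells in these differences was not tested.

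**Figure D2:**
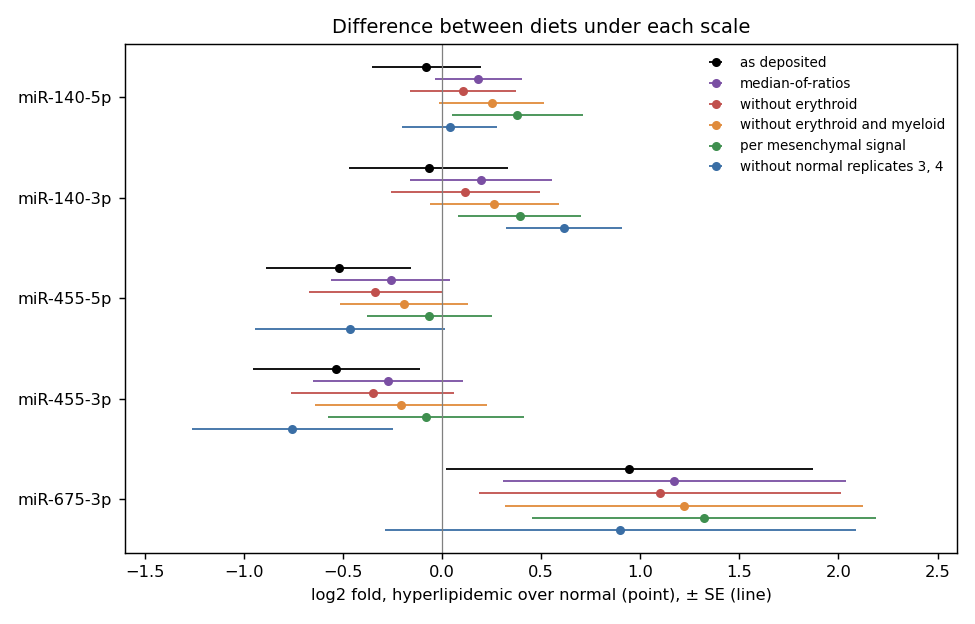
Log2 fold of each tested arm, hyperlipidemic over normal (point), with its standard error (line), for the deposited scale, 4 other scales and a fit without normal replicates 3 and 4. The miR-140 points lie below 0 for the deposited scale and above 0 for the others, miR-455 points lie below 0 and miR-675-3p points above 0, none past the threshold.

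The arms of miR-140 and miR-455 were unequal in opposite directions, in all 8 libraries. The 3p arm dominated miR-140, with 20.2% to 41.9% of its reads on the 5p arm and a median log2 ratio of 5p over 3p of -1.04. The 5p arm dominated miR-455, with 72.2% to 85.1% of its reads on the 5p arm and a median log2 ratio of 1.68. Among the 127 catalogued hairpins with both arms tested, the 5p arm was the higher in 77 and the 3p arm in 50. mir-675 had 11 reads of the 5p against 198 of the 3p arm in all.

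The arm balance of miR-140 moved between libraries by more than counting error, with a spread near the middle of that of other hairpins. The SD of its log2 ratio of 5p over 3p within groups was 0.55, against a median of 0.62 over the 127 hairpins, of which 42.5% had a smaller SD. Of the 38 hairpins with a mean of at least 60 RPM in both arms, 15 had a larger SD, and their median SD was 0.52. The 5p share was 27.7%, 29.3%, 35.9% and 37.1% in hyperlipidemic replicates 1 to 4 and 41.9%, 41.4%, 29.6% and 20.2% in normal replicates 1 to 4. The Wilson 95% interval was 40.6% to 43.2% in normal replicate 1 and 19.3% to 21.2% in normal replicate 4, and both cover counting error only. The normal group thus held both the highest and the lowest share, and the means were 32.5% ± 4.66 and 33.3% ± 10.4 (SD, n = 4 each). On the log2 scale of 5p over 3p the difference between diets was -0.01 (SE 0.41, 95% interval -0.91 to 0.88, limma adjusted p = 1.00). Leaving out normal replicates 3 and 4 moved this difference to -0.58. No hairpin of the 127 passed (0% called by limma), while 22.8% had an unadjusted p under 0.05 and 11.8% did not overlap between diets.

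The balance of miR-455 had an SD of 0.44 on the same scale, and 24.4% of the 127 hairpins had a smaller one. Its 5p share was 74.4%, 74.6%, 78.4% and 83.9% in hyperlipidemic replicates 1 to 4 and 76.4%, 72.2%, 76.3% and 85.1% in normal replicates 1 to 4. The 4th replicate was the highest in each group, and the diets overlapped throughout. The difference on the log2 scale was 0.01 (SE 0.34, 95% interval -0.74 to 0.77, limma adjusted p = 1.00), and it was 0.29 without normal replicates 3 and 4.

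**Figure D3:**
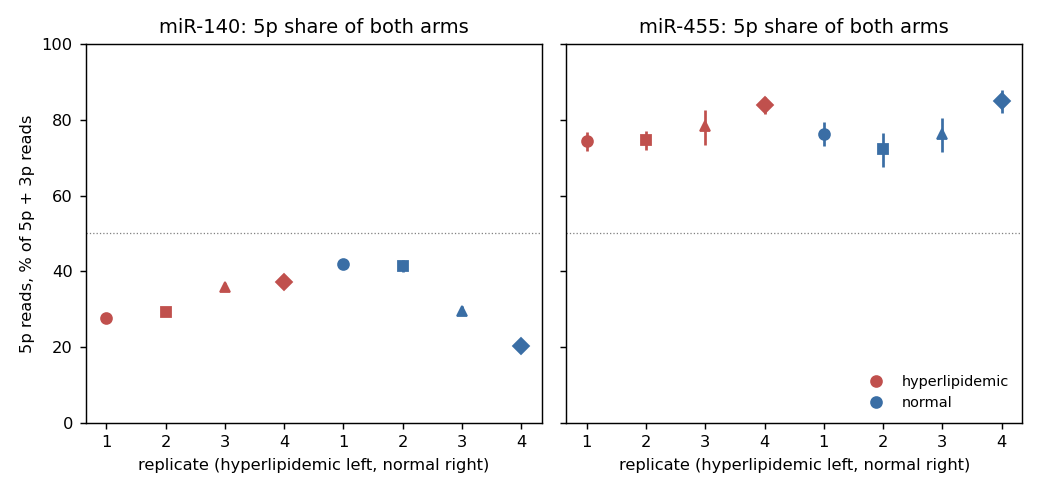
Share of reads on the 5p arm of miR-140 (left) and miR-455 (right) in each library, in percent of 5p plus 3p reads, with Wilson 95% intervals where they exceed the symbol. The miR-140 shares lie between 20.2% and 41.9%, below the dotted line at equal arms, and the miR-455 shares between 72.2% and 85.1%, above it.

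The arms of 1 hairpin come from the same precursor, yet the miR-140 arms had unequal spreads, given here as a description. The SD of the log2 values within groups was 0.37 for miR-140-5p, smaller than that of most miRNAs (20.45% of the 396 tested catalogued miRNAs had a smaller one), and 0.64 for miR-140-3p (63.1% had a smaller one). Of the 42 other miRNAs whose mean log2 level lay within 1 of that of miR-140-3p, 34 had a smaller SD. By the same measure 6 of 31 had a smaller SD for miR-140-5p. For miR-455-5p they were 46 of 62, for miR-455-3p 55 of 75 and for miR-675-3p 85 of 89. Counting alone gives an SD of 0.03 for the 5p and 0.02 for the 3p arm. miR-455-5p and miR-455-3p had SDs of 0.54 and 0.60, against 0.07 and 0.13 from counting. miR-675-3p had an SD of 1.43, and 96.2% of the tested catalogued miRNAs had a smaller one, but counting alone gives 0.61 at its depth.

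**Figure D4:**
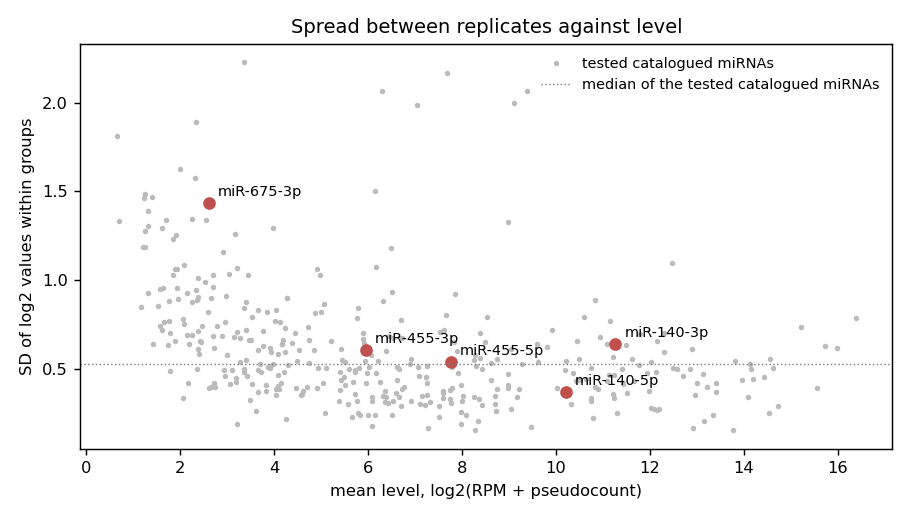
SD of the log2 values within groups against the mean log2 level for the 396 tested catalogued miRNAs (grey), with the 5 tested arms marked. The dotted line is the median SD of 0.53. miR-140-5p lies below it at 0.37, while miR-140-3p (0.64) and miR-675-3p (1.43) lie above it.

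Across the 8 libraries no relation among the members passed the adjusted threshold. Pearson's r between the log2 levels of miR-140-5p and miR-140-3p was 0.51 and Spearman's rho 0.29 (exact permutation p = 0.197 and 0.501, adjusted over 6 relations 0.413 and 0.582), and r was 0.55 without normal replicates 3 and 4. This r was 0.12 without normal replicate 3 alone and 0.80 without normal replicate 4 alone, while deviations from the diet means gave 0.51. Between miR-455-5p and miR-455-3p r was 0.77 and rho 0.55 (exact permutation p = 0.0912 and 0.171, adjusted 0.413 and 0.582), but r was -0.02 without hyperlipidemic replicates 1 and 3. It was 0.16 without hyperlipidemic replicate 3 alone and 0.79 without hyperlipidemic replicate 1 alone, so that the relation rested on replicate 3. As a description, the median r between the arms of a hairpin was 0.40 over the 127 hairpins. Between miR-675-5p and miR-675-3p r was 0.30 and rho 0.30 (exact permutation p = 0.439 and 0.470, adjusted 0.439 and 0.582), with few 5p reads, and r was 0.02 without hyperlipidemic replicate 4 and normal replicate 3.

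The summed arms of the hairpins were compared in the same way. For miR-140 and miR-455 r was 0.37 and rho 0.24 (exact permutation p = 0.381 and 0.582, adjusted 0.439 and 0.582), with r at 0.46 without normal replicates 2 and 3. For miR-140 and miR-675 r was 0.43 and rho 0.24 (exact permutation p = 0.277 and 0.582, adjusted 0.416 and 0.582), with r at 0.30 without the same libraries. For miR-455 and miR-675 r was 0.54 and rho 0.24 (exact permutation p = 0.206 and 0.582, adjusted 0.413 and 0.582), with r at 0.41 without hyperlipidemic replicates 1 and 3. On deviations from the diet means r was 0.84 for this pair (permutation p = 0.0233, adjusted 0.140), and on the levels it was -0.02 without hyperlipidemic replicate 3 alone. The deviations sum to 0 within each diet, so permuting them over all 8 libraries gives an approximate p and not an exact one. On the levels in all 8 libraries none of the 6 relations passed by the exact permutation test, adjusted or not. The 4 libraries of a diet are too few for a correlation within each diet.

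The miRNAs that each hairpin's leading arm resembled most over the 8 libraries were different ones, among 391 catalogued miRNAs compared by Pearson's r of log2 levels. These values are descriptions, and all points share libraries and scale. For miR-140-3p they were miR-143-3p (r = 0.91), a miRNA of smooth muscle and other mesenchymal cells, miR-409a-3p (r = 0.90), from the imprinted Dlk1-Dio3 cluster, and miR-27a-5p (r = 0.90). Of these, miR-409a-3p and miR-27a-5p were low, with means of 7.18 and 18.6 RPM, and miR-409a-3p stood at 1.43 RPM in normal replicate 2. miR-143-3p stood at 4303, 3895, 1754 and 2881 RPM in hyperlipidemic replicates 1 to 4 and at 2817, 2423, 6477 and 6946 RPM in normal replicates 1 to 4. Both were highest in normal replicates 3 and 4, the libraries with the least blood miRNA.

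For miR-455-5p the most alike were miR-409a-5p (r = 0.94), miR-380-3p (r = 0.92), both of the Dlk1-Dio3 cluster, and miR-150-3p (r = 0.90). Without hyperlipidemic replicate 3 these fell to 0.85, 0.56 and 0.67, so that the likeness to the last 2 rested largely on that library. The levels of these miRNAs were low, with means of 13.8, 5.27 and 5.34 RPM. In hyperlipidemic replicate 3 they stood at 3.4, 0.76 and 1.51 RPM, on few reads.

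For miR-675-3p the most alike were miR-136-3p (r = 0.98), of the Dlk1-Dio3 cluster, and the striated-muscle miRNAs miR-133b-3p (r = 0.96) and miR-133a-3p (r = 0.94). Leaving out any 1 library left these at 0.98, 0.94 and 0.91 or above. miR-133b-3p stood at 557, 321, 20.8 and 375 RPM in hyperlipidemic replicates 1 to 4 and at 326, 54.4, 175 and 19.3 RPM in normal replicates 1 to 4. The 3 libraries low in miR-675-3p were the 3 low in miR-133b-3p.

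The striated-muscle list, which includes these miR-133 arms, was low in the same 3 libraries as miR-675-3p, but otherwise in another order. Of its 7 miRNAs all were in the table, miR-208a-3p was at 0 in 7 libraries and miR-208b-3p in 1. The list summed to 0.474%, 0.198%, 0.019% and 0.313% of the catalogued signal in hyperlipidemic replicates 1 to 4 and to 0.195%, 0.056%, 0.341% and 0.043% in normal replicates 1 to 4. Normal replicate 3 was exceeded by a single library for the list (hyperlipidemic replicate 1) but by 4 libraries for miR-675-3p. Of the 6 list members tested, 4 lay above and 2 below a log2 fold of 0 between the diets, with miR-206-3p at -0.39, and none passed by limma (1 had an unadjusted p under 0.05). Over all 696 tested miRNAs 0.718% passed and 17.8% had an unadjusted p under 0.05, and 61.9% of the tested catalogued ones lay below 0. The part of muscle left on the bone in the miR-675-3p values was not tested.

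**Figure D5:**
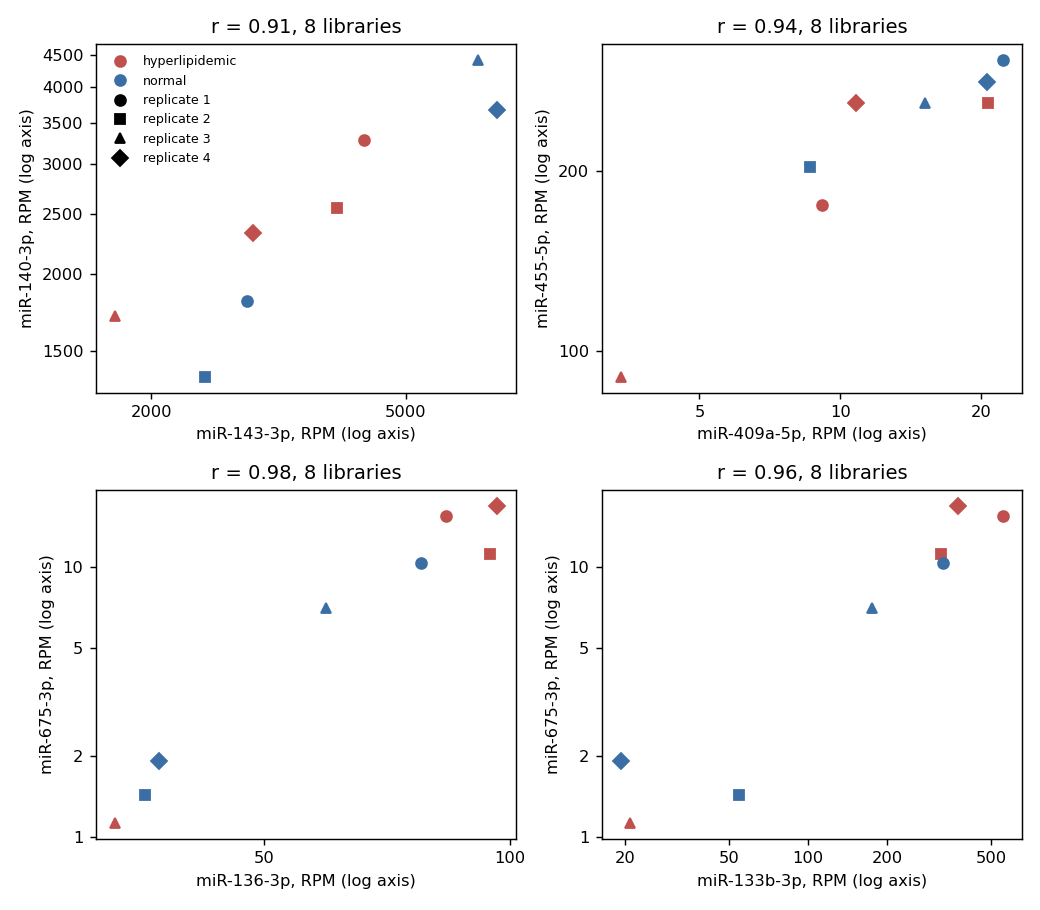
Level of miR-140-3p, miR-455-5p and miR-675-3p (vertical) against a miRNA most like it over the 8 libraries (horizontal), both in reads per 1000000 on log axes. Symbols are replicates and colours diets. The low group of 3 libraries in both miR-675-3p panels is hyperlipidemic replicate 3 and normal replicates 2 and 4.

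Other miRNAs that have been described in chondrocytes were tested beside these, from a list of 27, of which 25 were in the table and 23 were tested. None rose or fell past the threshold by limma, 3 of the 23 had an unadjusted p under 0.05 (against 17.8% of all 696 tested), and 16 lay below and 7 above a log2 fold of 0, with a median of -0.32. Of all tested catalogued miRNAs 61.9% lay below 0, with a median of -0.20. The most abundant were miR-26a-5p (mean 26161 ± 5959 RPM in hyperlipidemic and 29352 ± 5096 RPM in normal libraries; log2 fold -0.18, SE 0.24), which is found in most tissues, and miR-199a-5p (13996 ± 4528 and 25911 ± 10667 RPM, SDs over 4 libraries; log2 fold -0.85, SE 0.34). For miR-199a-3p the log2 fold was -0.14 (SE 0.33), and for miR-148a-3p it was -0.76 (SE 0.35). The list is not particular to cartilage, since miR-199a-5p, miR-199a-3p and miR-145-5p are also on the mesenchymal list. It summed to 9.49% to 15.7% of the catalogued signal in hyperlipidemic and 12.0% to 21.8% in normal libraries, which does not tell cartilage from other stroma, and the table holds no protein-coding cartilage markers.

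In the authors' deposited table miR-675-3p is the only member with a call, as up in hyperlipidemic rats, with a fold of 2.73, a log2 fold of 1.45, a p-value of 0.0247 and an adjusted p-value of 0.292. The authors' deposited table calls 14.5% of its miRNAs up, by a log2 fold above 1 whatever the p-value. The authors' deposited table gives log2 folds of 0.06 for both miR-140-5p and miR-140-3p, -0.33 for miR-455-5p, -0.28 for miR-455-3p and 0.19 for miR-675-5p, all listed as no change with adjusted p-values between 0.625 and 0.954. The miR-140 arms thus have a small positive sign in the authors' deposited table and a small negative one (-0.08 and -0.07) in the limma fit of the deposited values.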

How the data were processed

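Per the labels' protocols, total RNA of bone powder was made into adapter-ligated small RNA libraries, size-selected on a gel (140 to 160 bp) and read as 50-base single-end reads. Tools named in the submitters' processing notes are bcl2fastq 1.8.4, with Rnor_6.0 as genome build. For the aligner, the miRNA reference and the counting rule no source used here gives a name. The signal values of the 1 table were normalized by the authors before it was deposited. This signal, which they call FPKM, is in reads per 1000000 of a class, scaled separately for the 604 catalogued and the 370 predicted miRNAs. The listed catalogued values sum to 854151 to 909193 per library, so part of the reads behind their scale is in no listed entry. Shares of the catalogued signal are taken over the listed values. Within a class and library all values up to 20 reads were whole multiples of 1 step (within 0.1 read), from which reads were recovered. Because each class has its own step, count models served only as an alternative (voom). Further columns deposited by the authors hold a ratio of the diets (fold), its log2, a p-value and an adjusted p-value. No source used here names their test, and these columns appear only where named.

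Diets were compared by limma 3.58.1 (R 4.3.3, variance trend, two-sided) on log2(value + 0.475). The pseudocount of 0.475 RPM is the median of the smallest nonzero value of each library. For catalogued miRNAs 1 read was worth 0.208 to 0.378 RPM in hyperlipidemic and 0.572 to 1.01 RPM in normal libraries. The pseudocount was thus above 1 read in hyperlipidemic and mostly below 1 read in normal libraries. For predicted miRNAs 1 read was worth 6.94 to 16.6 RPM, above both the pseudocount and the 2.375 RPM minimum mean. The fit covered the 696 miRNAs (396 catalogued, 300 predicted) above 0 in at least 4 libraries with a mean of at least 2.375 RPM, with Benjamini-Hochberg adjustment over all 696 and a threshold of 0.05. Arm balance was tested likewise over 127 catalogued hairpins with both arms tested. Both fits were tested on simulated data. Exact permutation tests used scipy 1.17.1. All members are named. Other miRNAs are the 3 with the highest r for each leading arm, the 4 most abundant of the chondrocyte list, and marker list members beside a result. The members, lists and alternatives were chosen with earlier results of these data known. The labels do not say whether replicate numbers pair the libraries, and the numbers are treated as names only.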

Additional observations from a re-analysis of the deposited data

How the results depend on the processing

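No arm passed the threshold under any of 19 alternatives, no hairpin passed for arm balance under any of 13, and no correlation under any of 10. miR-455-5p, miR-455-3p and miR-675-3p kept their sign under all 18 alternative fits, with log2 folds of -0.69 to -0.06, -0.80 to -0.08 and 0.54 to 1.74. The sign of miR-140 did not hold. For miR-140-5p the log2 fold was 0.18 with median-of-ratios factors, 0.11 rescaled without red-cell miRNAs, 0.25 without red-cell and myeloid miRNAs, 0.38 rescaled to mesenchymal miRNAs and 0.038 without normal replicates 3 and 4. For miR-140-3p these were 0.20, 0.12, 0.26, 0.39 and 0.61 (limma adjusted p between 0.489 and 0.868). The rescaling without red-cell and myeloid miRNAs and that to mesenchymal miRNAs were chosen after seeing the data. Under the 4 other scales the change follows from the scale, and for the left-out libraries the cause was not tested.

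Leaving out each library in turn gave -0.21 to 0.13 for miR-140-5p and -0.36 to 0.20 for miR-140-3p, above 0 without hyperlipidemic replicate 3 or normal replicate 3 for both, and without normal replicate 4 for the 3p arm. It gave differences in arm balance of -0.32 to 0.18 for miR-140 and -0.17 to 0.24 for miR-455, and correlations of -0.0034 to 0.50 between miR-140 and miR-455 and -0.021 to 0.69 between miR-455 and miR-675. With a pseudocount 5 times larger the miR-455 difference in arm balance was -0.0018.

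With the replicate number as a block no member passed (count 0, and 0 of all 696 against 5 without it). Same-numbered libraries deviated together with r of 0.19, -0.08, -0.02 and 0.15, against -0.16 to 0.08 for libraries of the 2 diets with unlike numbers. Not every library correlated best with its own number, and these values do not settle whether the numbers pair the libraries. Depth limits miR-675 most, with 2 to 18 reads of the 3p arm in normal libraries.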
